A study of Mus musculus with 7 samples.

Results

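The genes described here encode structural and growth factor-binding proteins of the elastic fibre and its microfibrils. They are Ltbp1, Ltbp2, Ltbp3, Ltbp4, Fbn1, Fbn2, Eln, Fbln5, Mfap4 and Mfap5, chosen by symbol as a list of 10 genes among the 56854 gene identifiers in the count files of all libraries. Symbols are given in the Tnc-/- files, and the same Ensembl identifiers were looked up in the wild-type files. The study sequenced messenger RNA from whole shoulder joints of 7 mice, 1 library per mouse. The groups were wild type (n = 3) and Tnc-/- (n = 4), mice lacking tenascin C, an extracellular matrix glycoprotein of wounds and tendons. In both groups the supraspinatus, a rotator cuff tendon of the left shoulder, had been surgically repaired, and joints were taken 2 weeks later. Strain, age and the nature of the deleted allele are not given in the sources used here, and no unoperated joint was analysed here.

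Elastic fibres consist of a core of cross-linked elastin surrounded by microfibrils. Fibrillins form the microfibrils, and fibulins and microfibril-associated proteins help to deposit elastin on them. Latent TGF-beta binding proteins, which resemble fibrillins in their domains, secrete TGF-beta in an inactive complex and anchor it to the matrix, where integrins and proteases can release it. Tendon carries elastic fibres between its collagen fascicles, and in a joint they are also found in vessel walls, synovium, perichondrium and skin.

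None of the 10 genes passed edgeR's quasi-likelihood test between genotypes after Benjamini-Hochberg adjustment. All 10 passed the filter on low counts, with 358 to 11063 reads per library. The same threshold, an adjusted p under 0.05, was met by 29.0% of the 17791 genes tested, 10.3% higher and 18.7% lower in Tnc-/-. At an unadjusted p under 0.05 there were 3 of 10, Ltbp2, Ltbp3 and Ltbp4, with higher levels in Tnc-/-. By the same adjusted threshold DESeq2 called 1, Ltbp4 (39.3% of all genes), and limma voom called 0 (5.47%). Of the 10 log2 fold changes (Tnc-/- relative to wild type), 5 were above 0 and 5 below, from -0.52 for Fbn2 to 0.51 for Ltbp3. Their median was -0.048, against -9.0e-04 over all genes tested, and the median absolute change was 0.26, against 0.51. The genes tested include some with far fewer reads than these 10, and the comparison was not matched for level. The levels of the Tnc-/- libraries did not overlap those of the wild type for 2 of the 10, Ltbp2 and Ltbp4, both higher in Tnc-/-, where 35.1% of all genes tested did not overlap (17.7% higher in Tnc-/-).

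Other settings gave few calls among the 10 genes. Scaling by library totals in place of the trimmed mean of M values (TMM) called 2, Ltbp1 and Fbln5, both lower (30.9% of all genes). Without wild-type library 1 there were 3, Ltbp2, Ltbp3 and Ltbp4, all higher, but 64.2% of all genes passed there. Counts were 0 with the size factors of DESeq2 (28.3%), upper-quartile scaling (27.6%), no filter (26.3%), a minimum of 10 counts in every sample (24.3%) and without mitochondrial and the 20 most abundant genes (29.1%). They were also 0 with Bonferroni adjustment in DESeq2 (6.5%), a replicate block (9.74%), and without wild-type library 2 (16.0%) or 3 (12.3%). Leaving out Tnc-/- libraries 1 to 4 gave 0 each time (16.6, 17.6, 14.5 and 16.5% of all genes). Of all calls, 64.5% were lower in Tnc-/- with TMM and 82.7% with library totals.

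The libraries themselves were uneven. They held 13462535 to 18503579 gene counts in wild type and 19249441 to 28189752 in Tnc-/-. Tnc had 292 to 437 CPM (a counts-per-million level, TMM-scaled) in wild type and 33.4 to 55.0 CPM in Tnc-/-. In edgeR it differed by -3.08 on the log2 scale (SE 0.21, adjusted p = 2.8e-04). The count files of the 2 genotypes list different identifiers, 126 found only in those of wild type and 87 only in those of Tnc-/-, so how reads were counted and which genotype they came from cannot be told apart. Wild-type libraries 2 and 3 stood apart. Smell and pheromone receptor genes, 2010 in number, which a joint is not known to use, summed to 1399 and 982 CPM there, against 89.1 CPM in wild-type library 1 and 36.5 to 43.9 CPM in Tnc-/-. Values are therefore also given with wild-type library 1 alone against the 4 Tnc-/- libraries (4.45% of all genes called, 0 of the 10), and with the log2 of that receptor sum as a covariate (2.23% called, 0 of the 10). Every wild-type receptor sum was above every Tnc-/- sum, so the covariate partly follows genotype. Its fit can therefore take up part of a genotype difference. The SE was larger with it for each of the 10 genes (for Ltbp1 0.27 against 0.16). Changed values and lost calls with the covariate thus cannot tell a receptor-linked difference from one of genotype. Of the fibroblast markers 8 of 8 had counts in every library, as had 5 of 6 of the tendon markers. Scx, a tendon transcription factor, was listed at 0 in all 7 libraries. Summed levels of some tissue markers also differed. Skeletal muscle markers summed to 19134 to 25601 CPM in wild type and 27147 to 40290 CPM in Tnc-/-. Of these 6 genes, 1 was called in edgeR (16.7%, against 29.0% of all genes). The groups did not overlap for 3 of the 6 (50%, against 35.1%), but did for Acta1, the most abundant. Erythroid markers summed to 4249.6 to 8069.6 and 11882 to 23569 CPM, although Alas2, a gene of that list, was at 0 in all 7 libraries. Of the 4 erythroid markers tested, 3 were called in edgeR (75%). Whether the tissue differed in makeup, and the part of these markers in the results, were not tested. Because these were whole joints, a change in the number of expressing cells and a change in RNA per cell cannot be told apart.

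**Figure D1:**
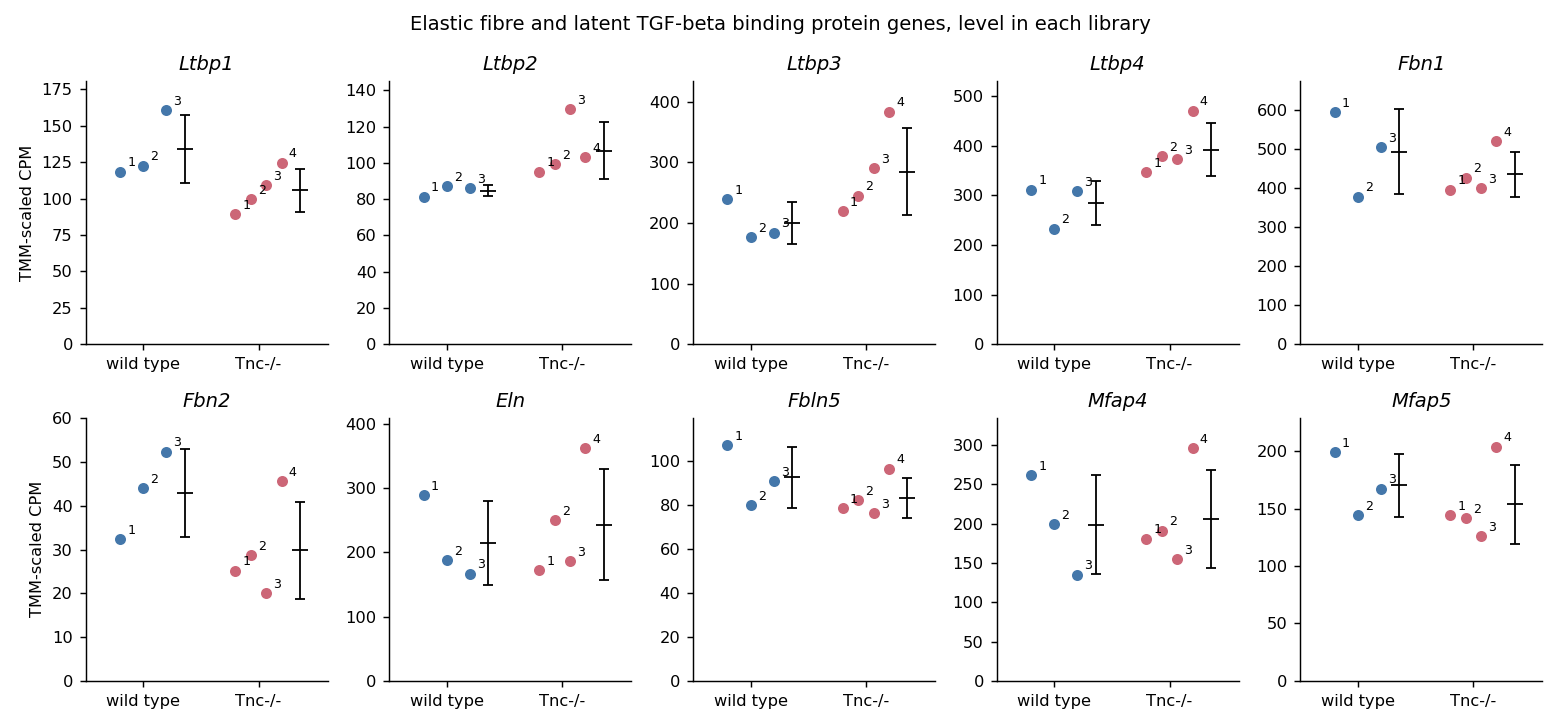
TMM-scaled CPM of the 10 genes in each library, with the replicate number beside each point; black bars show the group mean and SD (n = 3 wild type, n = 4 Tnc-/-). Only Ltbp2 and Ltbp4 have every Tnc-/- point above every wild-type point, and Tnc-/- library 4 is the highest of its group in 9 of 10 panels.

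Of the 4 latent TGF-beta binding proteins, 3 had log2 fold changes above 0 and 1 below. Ltbp4, which binds fibulin 5 and takes part in elastic fibre assembly as well as TGF-beta secretion, had levels of 312, 233 and 309 CPM in the wild-type mice numbered 1 to 3. In the Tnc-/- mice numbered 1 to 4 the levels were 347, 379, 372 and 470.3 CPM. Every Tnc-/- library was above every wild-type library. The means were 284 ± 44.8 CPM (SD, n = 3) and 392 ± 53.8 CPM (SD, n = 4), and the log2 fold change was 0.46 (SE 0.17; 95% interval 0.069 to 0.86; edgeR, adjusted p = 0.0748). DESeq2 called the gene (0.43, adjusted p = 0.0188), and edgeR without wild-type library 1 did so too (0.63, adjusted p = 0.00737). With wild-type library 1 alone the log2 fold change was 0.33 and with the receptor covariate 0.21.

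Ltbp2, a microfibril protein that does not bind latent TGF-beta despite its name, was at 81.4, 87.1 and 86.0 CPM in wild type and at 95.2, 99.2, 129.6 and 103 CPM in Tnc-/-. The wild-type libraries lay close together, at 84.8 ± 2.99 CPM (SD, n = 3), and below all 4 Tnc-/- libraries, at 107 ± 15.6 CPM (SD, n = 4). The log2 fold change was 0.33 (SE 0.14; 95% interval 0.02 to 0.65; edgeR, adjusted p = 0.100). It was 0.39 with wild-type library 1 alone, and thus larger with wild-type libraries 2 and 3 left out, and 0.41 with the covariate. Leaving out only wild-type library 2 gave 0.355, and only library 3 gave 0.346. Library totals in place of TMM gave 0.084, and without wild-type library 1 the value was 0.40 (edgeR, adjusted p = 0.0347).

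Ltbp3, which is known for its part in TGF-beta supply to bone and teeth, was at 239, 177 and 184 CPM in wild type. In Tnc-/- it was at 219.6, 245, 291 and 384 CPM, so Tnc-/- library 1 lay below wild-type library 1 and the groups overlapped. The means were 199.8 ± 34.0 CPM (SD, n = 3) and 285 ± 72.2 CPM (SD, n = 4). The log2 fold change was 0.51 (SE 0.22; 95% interval 0.017 to 1.01; edgeR, adjusted p = 0.108). It was 0.25 with wild-type library 1 alone, 0.079 with the covariate and 0.75 without wild-type library 1 (edgeR, adjusted p = 0.00589).

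Ltbp1, the most widely studied carrier of latent TGF-beta, lay on the other side of 0. It was at 118, 122 and 161 CPM in wild type and at 89.4, 99.7, 109 and 125 CPM in Tnc-/-. Only Tnc-/- library 4 reached into the wild-type range. The means were 134 ± 23.4 CPM (SD, n = 3) and 106 ± 14.9 CPM (SD, n = 4), with a log2 fold change of -0.34 (SE 0.16; 95% interval -0.71 to 0.03; edgeR, adjusted p = 0.146). The value was -0.17 with wild-type library 1 alone and -0.16 with the covariate. Library totals gave -0.60 (edgeR, adjusted p = 0.0302), a scaling under which the median of all genes was -0.24. Ltbp1 spans 387 kb in GENCODE M21, the longest span of the 10. It was higher in wild-type libraries 2 and 3 than in library 1 by 0.26 log2 units on average. Most of that came from library 3 (161 CPM), as library 2 (122 CPM) was close to library 1 (118 CPM). A link to the span was not tested.

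The ratio of Ltbp4 to Ltbp1, described next, did not overlap between genotypes, and the upstream sequences of both are shown. Of all pairs of tested genes with counts in every library, 32.6% did not overlap either, so this does not set the pair apart. The RefSeq promoter table (GRCm38.p6) held 6 of the 10 genes, with a further Ltbp4 start that nearly coincides with the downstream one and is not shown. Ltbp1 and Ltbp4 are each transcribed from separated starts that give a long and a short form, and counts per gene do not tell these apart. The 250 bases before each start are printed 5′ to 3′ on the gene's strand, with capitals marking CAGAC or its reverse complement GTCTG, the core of the Smad-binding element through which TGF-beta signals reach promoters.
Ltbp1 upstream start, chr17:75005279-75005528, plus strand: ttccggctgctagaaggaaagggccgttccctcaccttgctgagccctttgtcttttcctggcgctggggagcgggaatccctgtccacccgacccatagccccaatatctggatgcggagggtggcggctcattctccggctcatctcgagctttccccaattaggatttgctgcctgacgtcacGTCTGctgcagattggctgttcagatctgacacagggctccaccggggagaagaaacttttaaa
Ltbp1 downstream start, chr17:75178531-75178780, plus strand: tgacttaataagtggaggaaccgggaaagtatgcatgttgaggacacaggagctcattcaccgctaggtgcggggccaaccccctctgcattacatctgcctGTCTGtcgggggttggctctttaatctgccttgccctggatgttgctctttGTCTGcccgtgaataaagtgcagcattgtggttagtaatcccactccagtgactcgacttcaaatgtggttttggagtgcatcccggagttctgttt
Ltbp4 upstream start, chr7:27337613-27337862, minus strand: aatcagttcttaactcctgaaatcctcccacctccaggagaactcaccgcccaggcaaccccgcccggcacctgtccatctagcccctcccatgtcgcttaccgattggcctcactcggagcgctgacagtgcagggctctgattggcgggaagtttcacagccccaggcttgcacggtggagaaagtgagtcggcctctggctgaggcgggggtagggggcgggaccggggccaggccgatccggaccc
Ltbp4 downstream start, chr7:27333664-27333913, minus strand: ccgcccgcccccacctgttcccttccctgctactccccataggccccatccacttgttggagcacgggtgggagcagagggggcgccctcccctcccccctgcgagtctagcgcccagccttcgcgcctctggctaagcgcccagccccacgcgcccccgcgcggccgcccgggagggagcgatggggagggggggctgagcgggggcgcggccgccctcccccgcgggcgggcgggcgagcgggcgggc
On both strands together, CAGAC occurred 1 and 2 times before the starts of Ltbp1 and 0 times before both starts of Ltbp4. It is common, with 42.2% of the 32851 windows of the table holding it. GGGCGG, the GC box bound by Sp1, occurred 0 times before either start of Ltbp1 and 3 and 7 times before those of Ltbp4, where 32.7% of all windows hold it. The GC content was 56.8 and 50.8% for Ltbp1 and 64.4 and 79.2% for Ltbp4, against a median of 52.4% in the table. The ratios of Ltbp2 and Ltbp3 to Ltbp1 also did not overlap between genotypes, and their windows differed from those of Ltbp4. Before the start of Ltbp2, CAGAC occurred 2 times and GGGCGG 2 times, with a GC content of 61.6%. Before that of Ltbp3 they occurred 1 and 0 times, with 47.2%. These matches describe the letters only, no binding was measured, and a link to the levels was not tested.

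A ratio of 2 genes within a library does not depend on how libraries are scaled. Ltbp4 was 2.63, 1.90 and 1.92 times Ltbp1 in wild-type libraries 1 to 3 and 3.88, 3.81, 3.42 and 3.78 times Ltbp1 in Tnc-/- libraries 1 to 4. The ranges of the groups did not overlap. The mean log2 ratio was 1.09 ± 0.27 (SD, n = 3) and 1.89 ± 0.083 (SD, n = 4), a difference of 0.81, or 0.50 when wild-type library 1 alone was compared. Ltbp3 was 2.02, 1.44 and 1.15 times Ltbp1 in wild type and 2.46, 2.46, 2.67 and 3.08 times in Tnc-/-. Ltbp2 was 0.69, 0.71 and 0.53 times Ltbp1 in wild type and 1.06, 0.99, 1.19 and 0.83 times in Tnc-/-. All 3 ratios were higher in every Tnc-/- library than in any wild-type library.

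The ratios of all 45 pairs of the 10 genes were examined after the values were seen. The groups did not overlap in 11 of 45 (24.4%), while 32.6% of all pairs of tested genes with counts in every library did not overlap. All 11 set Ltbp2, Ltbp3 or Ltbp4 against 1 of the other 7 genes, out of 21 such pairs. Ltbp2 was among them only in its ratio to Ltbp1. These 3 genes are those with higher levels at an unadjusted p under 0.05 in edgeR, so this grouping is not a separate result. Among the other 7 genes 0 of 21 pairs were without overlap. The exact two-sided permutation test gave p = 0.0571 for each of the 11, and 0.234 after Benjamini-Hochberg adjustment over the 45. The first is the smallest that 3 against 4 libraries allow, and any pair without overlap gets it. The pairs share genes and are not independent.

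**Figure D2:**
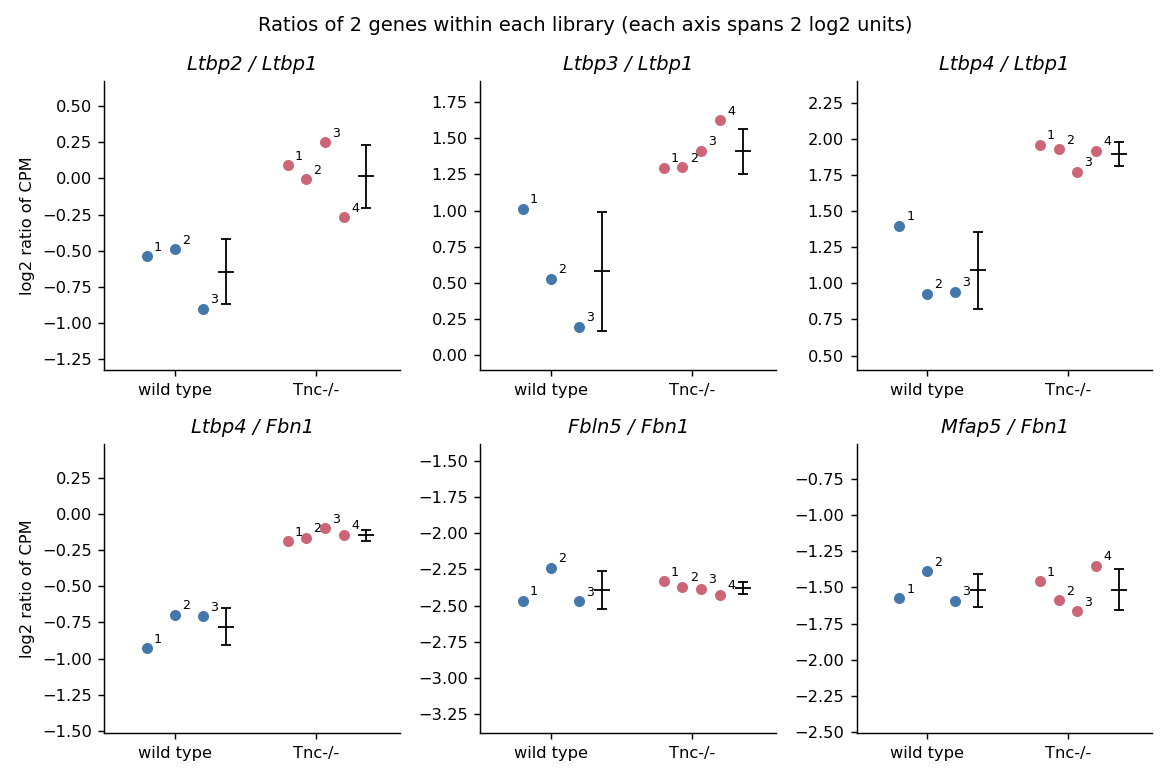
Log2 ratio of the CPM of 2 genes within each library, with replicate numbers; black bars show the group mean and SD (n = 3 wild type, n = 4 Tnc-/-), and every axis spans 2 log2 units. The upper 3 ratios and Ltbp4 to Fbn1 lie higher in all Tnc-/- libraries than in any wild-type library, whereas Fbln5 to Fbn1 and Mfap5 to Fbn1 overlap.

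The fibrillins, the scaffold of the microfibril, had log2 fold changes below 0, and neither passed the test. Fbn1, the main fibrillin of adult tissue and the gene mutated in Marfan syndrome, was at 594, 377 and 504 CPM in wild type and at 395, 425, 399 and 519 CPM in Tnc-/-. Wild-type libraries 1 and 2 bracketed the whole Tnc-/- group. The means were 492 ± 109 CPM (SD, n = 3) and 435 ± 58.0 CPM (SD, n = 4), with a log2 fold change of -0.18 (SE 0.19; 95% interval -0.62 to 0.26; edgeR, adjusted p = 0.520). It was -0.45 with wild-type library 1 alone, -0.64 with the covariate and 0.072 without wild-type library 1. In GENCODE M21, 20.1% of the exon bases of Fbn1 are shared with the antisense gene Gm9913. Whether counting used strand is not stated, so counts of Fbn1 are uncertain in that part.

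Fbn2, the fibrillin that predominates in development, had the fewest reads of the 10. It was at 32.4, 44.1 and 52.4 CPM in wild type and at 25.1, 28.7, 20.04 and 45.7 CPM in Tnc-/-. Tnc-/- library 4 was above wild-type libraries 1 and 2, and the other Tnc-/- libraries were below all of the wild type. The means were 42.9 ± 10.05 CPM (SD, n = 3) and 29.9 ± 11.1 CPM (SD, n = 4), and the log2 fold change was -0.52 (SE 0.28; 95% interval -1.17 to 0.12; edgeR, adjusted p = 0.195). Wild-type libraries 2 and 3 exceeded library 1 by 0.58 log2 units on average, the largest such excess of the 10 genes. The value shrank to -0.12 with wild-type library 1 alone and to -0.027 with the covariate. Fbn1 was 18.3, 8.56 and 9.63 times Fbn2 in wild type and 15.7, 14.8, 19.9 and 11.4 times Fbn2 in Tnc-/-, so the ratio overlapped between genotypes.

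Eln and Mfap4 varied widely between mice of a genotype. Eln, which encodes tropoelastin, was at 289, 188 and 167 CPM in wild type and at 172, 251, 186 and 362 CPM in Tnc-/-. The lowest and the highest Tnc-/- library differed by more than the group means, as they did for each of the 10 genes. The group means of Eln were 215 ± 65.1 CPM (SD, n = 3) and 243 ± 86.3 CPM (SD, n = 4). The log2 fold change was 0.18 (SE 0.29; 95% interval -0.49 to 0.85; edgeR, adjusted p = 0.678). Its direction was not stable, at -0.25 with wild-type library 1 alone, -0.49 with the covariate, -0.052 with library totals and -0.081 without Tnc-/- library 4.

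Mfap4, a microfibril-associated glycoprotein of vessels and skin that binds elastin, was at 262, 199 and 135 CPM in wild type and at 181, 191, 155 and 296 CPM in Tnc-/-. Its ranges overlapped almost fully, with a log2 fold change of 0.05 (SE 0.28; 95% interval -0.58 to 0.68; edgeR, adjusted p = 0.908). The means were 199 ± 63.2 CPM (SD, n = 3) and 206 ± 62.3 CPM (SD, n = 4). With wild-type library 1 alone the value was -0.35 and with the covariate -0.52, and it was also below 0 with library totals (-0.18) and upper-quartile scaling (-0.012).

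The other assembly proteins lay slightly below 0. Fbln5, the fibulin that ties elastin to microfibrils and to integrins, was at 107, 79.9 and 91.1 CPM in wild type and at 78.7, 82.3, 76.4 and 96.7 CPM in Tnc-/-. Its log2 fold change was -0.15 (SE 0.14; 95% interval -0.48 to 0.17; edgeR, adjusted p = 0.454), and library totals turned this into a call (-0.39, adjusted p = 0.0346). The means were 92.8 ± 13.8 CPM (SD, n = 3) and 83.5 ± 9.10 CPM (SD, n = 4), and the value was -0.37 with wild-type library 1 alone and -0.49 with the covariate. Mfap5, a microfibril component that binds fibrillins, was at 199, 144 and 167 CPM in wild type and at 144, 141.5, 126 and 204 CPM in Tnc-/-. Its log2 fold change was -0.15 (SE 0.19; 95% interval -0.59 to 0.30; edgeR, adjusted p = 0.602), with -0.38 for wild-type library 1 alone and -0.53 with the covariate. The means were 170.2 ± 27.7 CPM (SD, n = 3) and 154 ± 34.4 CPM (SD, n = 4), and the ranges overlapped. Without wild-type library 1 both Fbln5 and Mfap5 turned to just above 0 (0.058 and 0.076).

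Fbln5 and Mfap5 kept nearly fixed proportions to Fbn1 across the mice. The ratios given here were picked from the 45 after their values were seen. How often other pairs of genes vary as little was not examined. Fbln5 was 0.18, 0.21 and 0.18 times Fbn1 in wild type and 0.199, 0.193, 0.192 and 0.186 times Fbn1 in Tnc-/-. The SD of this log2 ratio was 0.13 in wild type and 0.040 in Tnc-/-, and the means differed by 0.014. Mfap5 was 0.32 to 0.39 times Fbn1 in all 7 libraries, and the mean log2 ratio differed by 0.0044 between genotypes. Ltbp4 was 0.52, 0.62 and 0.61 times Fbn1 in wild type and 0.88, 0.89, 0.93 and 0.91 times Fbn1 in Tnc-/-. The SD of this ratio in Tnc-/- was 0.038 in log2, the smallest among the 45 ratios. The difference of 0.63 in this ratio was 0.78 when set against wild-type library 1 alone. Exact permutation over the 35 splits gave p = 0.0571 for Ltbp4 to Fbn1, and 0.914 and 1.0 for Fbln5 and Mfap5 to Fbn1.

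The levels differed between libraries of a genotype. Tnc-/- library 4 was the highest of its group in 9 of 10 genes, with Ltbp2 the exception, and wild-type library 1 was the highest of its group in 7 of 10. The 10 genes summed to 2233, 1652 and 1856 CPM in wild type and to 1748, 1943, 1864 and 2606 CPM in Tnc-/-. The 8 fibroblast markers (collagens I and III, Dcn, Lum and others) had the same top libraries, with summed levels of 49998, 31041 and 39028 CPM in wild type and 33112, 36665, 37861 and 57637 CPM in Tnc-/-. Collagens I and III made up most of the fibroblast sum. The smooth muscle and pericyte list ran from 684 to 989.7 CPM in wild type and from 809 to 1098 CPM in Tnc-/-. Cartilage markers ran from 557 to 1277 CPM and from 589 to 1975 CPM, highest in wild-type library 1 and Tnc-/- library 4. Endothelial markers ran from 544 to 644 CPM and from 529 to 599.6 CPM. That sum joins genes of opposite direction, with 3 of 6 called in edgeR (50%, against 29.0% of all genes). Named after their values were seen, Tek and Emcn were lower (log2 fold change -0.95 and -0.84) and Vwf was higher (0.77). The part of these marker lists in the differences above was not tested.

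**Figure D3:**
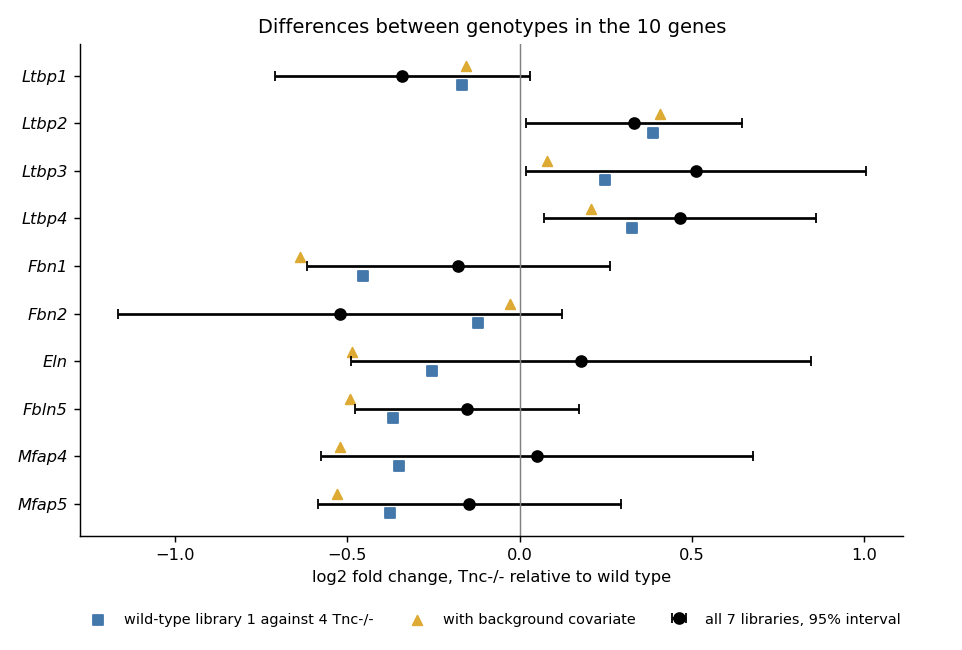
Log2 fold change of the 10 genes, Tnc-/- relative to wild type. Black points and bars give the fit to all 7 libraries with its 95% interval, blue squares the fit of wild-type library 1 against the 4 Tnc-/- libraries, and yellow triangles the fit with the receptor sum as a covariate. Ltbp2, Ltbp3 and Ltbp4 stay above 0 in all 3 fits, Ltbp1, Fbn1, Fbn2, Fbln5 and Mfap5 stay below 0, and Eln and Mfap4 change sign.

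Compared per kb of exon, the 10 genes covered more than an order of magnitude. Levels were CPM divided by the length of all exons merged in GENCODE M21. Mfap4 was highest, at 103 ± 32.9 CPM per kb in wild type (SD, n = 3) and 107 ± 32.4 in Tnc-/- (SD, n = 4), and exceeded Mfap5, the next, in 7 of 7 libraries. Mfap5 (47.4 ± 7.71 CPM per kb in wild type), Ltbp4 (44.0 ± 6.92) and Fbn1 (40.5 ± 8.97) followed and did not differ beyond their spread in wild type. In Tnc-/- Ltbp4 stood at 60.7 ± 8.33 CPM per kb, second after Mfap4 by this length, and it was above Fbn1 in 6 of 7 libraries, wild-type library 1 being the exception. Eln (26.5 ± 8.04) and Ltbp3 (22.04 ± 3.75) came next in wild type, and in Tnc-/- they were at 30.0 ± 10.7 and 31.4 ± 7.96, within their spread. Ltbp3 exceeded Fbln5 in all 7 libraries. Fbln5 (13.4 ± 2.00), Ltbp1 (12.5 ± 2.19) and Ltbp2 (10.4 ± 0.37) were close together in wild type. By this length Ltbp1 was above Ltbp2 in all 3 wild-type libraries and in 0 of the 4 Tnc-/- libraries. Fbn2 was lowest, at 3.25 ± 0.76 CPM per kb in wild type and 2.26 ± 0.84 in Tnc-/-. Much of this order depended on the length used. With the longest coding transcript in its place, Ltbp1 was above Ltbp2 in 2 of the 4 Tnc-/- libraries, and the Tnc-/- means were 15.8 and 15.8 CPM per kb. Eln was then above Ltbp3 in both genotypes (63.0 and 54.9 CPM per kb in Tnc-/-), with rank 3 in place of 5 in wild type. Ltbp4 had rank 3 in Tnc-/- at 72.8 CPM per kb, below Mfap5 at 102 CPM per kb in all 4 libraries. Mfap4 and Mfap5 came close together in wild type (115 and 113 CPM per kb), and Mfap4 and Fbn2 kept the ends of the order by their means.

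**Figure D4:**
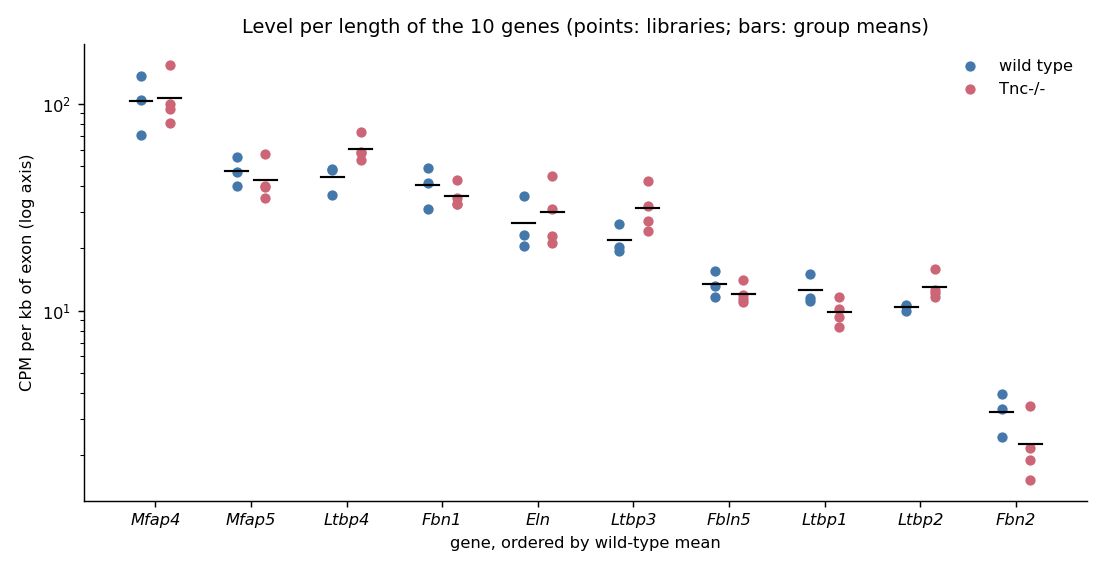
Level of the 10 genes in CPM per kb of merged exon on a log axis, ordered by the wild-type mean; points are libraries and black bars group means. Mfap4 lies highest, near 100 CPM per kb, and Fbn2 lowest, at 1.52 to 3.96 CPM per kb. By the longest coding transcript, Ltbp1 is above Ltbp2 also in 2 of the 4 Tnc-/- libraries.

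Genes whose products work with these 10 on elastic fibres were called about as often as all genes. Of 21 assembly partners, all tested, 3 were higher and 3 lower in Tnc-/- at an adjusted p under 0.05 and 15 did not pass, or 28.6%, against 29.0% of all genes. Efemp1, encoding fibulin 3, fell from 19.6, 28.9 and 23.0 CPM to 8.14, 12.03, 11.6 and 10.8 CPM, with no overlap (log2 fold change -1.16, SE 0.22; edgeR, adjusted p = 0.00883). Adamts17, a protease-family protein linked to fibrillin microfibrils, fell from 14.5, 44.7 and 34.4 CPM to 5.51, 10.1, 7.61 and 7.79 CPM (-2.01, SE 0.37; adjusted p = 0.00814). Neither gene overlapped between groups. Both calls were lost with wild-type library 1 alone, at -0.89 and -0.92 (edgeR, adjusted p = 0.0615 and 0.0918), and with the covariate, at -0.74 and -0.47 (adjusted p = 0.251 and 0.530). Adamts17 also missed the threshold with limma voom (-1.90, adjusted p = 0.0563). Named after their values were seen, the other lower gene was Thsd4, and the higher ones were Adamtsl4, Adamtsl5 and Adamts10, with log2 fold changes of 0.67, 0.59 and 0.55. Thsd4 was at 11.9, 59.7 and 40.8 CPM in wild type, and library 1 lay just below the Tnc-/- range of 12.5 to 14.5 CPM. Fbln2 (233 ± 37.0 and 279 ± 58.1 CPM) and the cross-linking enzyme Loxl2 (253 ± 19.8 and 246 ± 56.4 CPM) did not pass. Leaving out single libraries gave 2 to 10 calls in this list, and each of the 7 moved the count by at least 1.5 times.

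Genes that make, hold, release or receive TGF-beta numbered 17, and 4 were higher, 2 lower and 11 not called (35.3%, against 29.0% of all genes). Tgfb1, a ligand carried by latent TGF-beta binding proteins, rose from 131, 76.6 and 91.2 CPM to 183, 147, 172 and 176 CPM, without overlap (log2 fold change 0.77, SE 0.19; edgeR, adjusted p = 0.0203). It was 0.37 with wild-type library 1 alone (edgeR, adjusted p = 0.237) and 0.15 with the covariate (adjusted p = 0.761), and 5 of the 7 libraries were needed for the call. Omitting wild-type libraries 2 and 3 in turn gave adjusted p of 0.0621 and 0.0881, and omitting Tnc-/- libraries 1, 3 and 4 gave 0.0636, 0.0595 and 0.0556. Itgav, the integrin subunit shared by the main activators of latent TGF-beta, fell from 101, 81.5 and 102 CPM to 60.7, 60.1, 64.4 and 62.9 CPM. Its log2 fold change was -0.62 (SE 0.12; edgeR, adjusted p = 0.00929), and it held with wild-type library 1 alone (-0.72, adjusted p = 0.0223). It passed the threshold in 18 of 19 alternatives, the exception being the covariate (-0.79, adjusted p = 0.0615). Named after their values were seen, Itgb3, Nrros and Furin were also called higher (0.87, 0.74 and 0.68) and Tgfbr3 lower (-0.51). Itgb1 (581 ± 128 and 563 ± 47.4 CPM) and Bmp1 (274 ± 58.8 and 368 ± 89.2 CPM), a protease that acts on several matrix precursors, did not pass. Leaving out single libraries gave 1 to 8 calls in this list. Without wild-type library 2 or 3 there were 2 and 1, and without Tnc-/- libraries 1 to 4 there were 1, 3, 1 and 1.

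Of 10 genes that TGF-beta is known to induce, 0 passed in edgeR at the adjusted threshold, 0 at an unadjusted p under 0.05, and 0 in DESeq2 or limma voom after adjustment. Of all genes, 29.0%, 39.3% and 5.47% passed the adjusted threshold in edgeR, DESeq2 and voom. Library totals called 1 (30.9% of all genes), as did edgeR without wild-type library 1 (64.2%). Their median log2 fold change was 0.18, against -9.0e-04 over all genes. Smad7, the feedback inhibitor, was at 19.7 ± 4.33 CPM in wild type and 25.8 ± 3.70 CPM in Tnc-/-, and Ccn2, a matricellular growth factor, was at 116 ± 14.98 and 147 ± 33.2 CPM. Col1a1 was at 10686 ± 2950 and 12850 ± 3933 CPM, and Fn1 at 4351 ± 478 and 4682 ± 1111 CPM (SD, n = 3 and 4 in each case). Tagln was near 0 in all libraries (0.27 to 1.06 CPM); 67.9% of its exon bases are shared with other genes in GENCODE M21, so its counts are uncertain.

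Among 11 enzymes known to cleave elastin, Mmp7 had 0 counts in all libraries, 1 of the 10 tested passed and 9 did not, where 29.0% of all genes passed. Without wild-type library 1 there were 6 calls of 10, where 64.2% of all genes passed, and leaving out any other single library gave 0. Prtn3, a neutrophil granule protease, rose from 173, 88.3 and 68.6 CPM to 341, 195, 221 and 223 CPM (log2 fold change 1.15, SE 0.33; edgeR, adjusted p = 0.0324). The call was kept without wild-type library 1 and lost without any other library, with adjusted p up to 0.115. With wild-type library 1 alone the log2 fold change was 0.50 (edgeR, adjusted p = 0.286) and with the covariate 0.23 (adjusted p = 0.784). Markers of the neutrophil lineage summed to 3276, 1551 and 1723 CPM in wild type and to 3470.5 to 5777 CPM in Tnc-/-, with 5 of 5 detected throughout, and their part in this result was not tested. Ctsg, also from granules, was at 33.5 ± 21.3 and 61.6 ± 16.1 CPM (0.88, adjusted p = 0.112). The matrix metalloproteinases Mmp2 (891 ± 138 and 920.4 ± 245 CPM) and Mmp14 (666 ± 229 and 869.5 ± 269.8 CPM) did not pass.

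**Figure D5:**
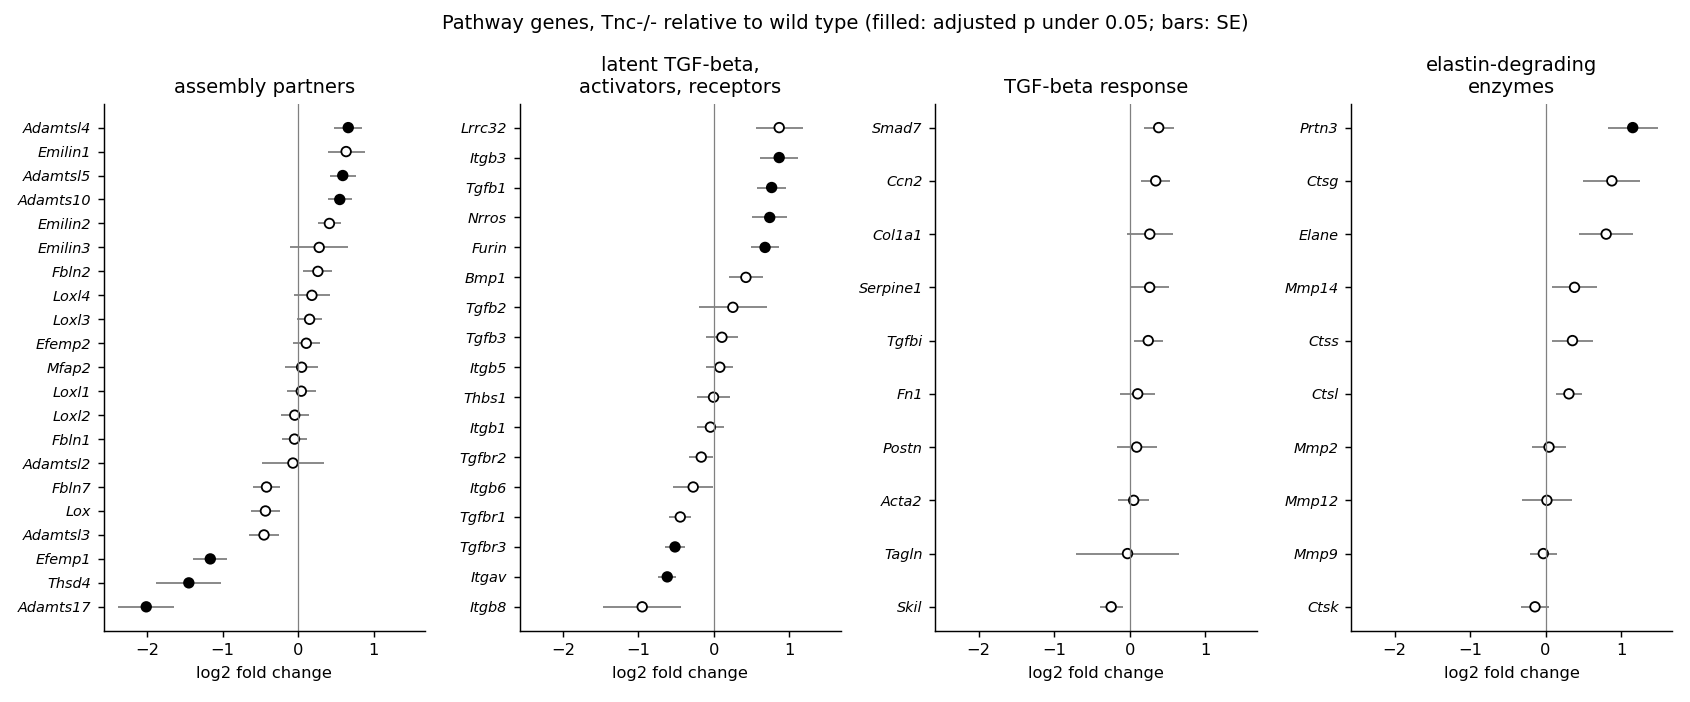
Log2 fold change (Tnc-/- relative to wild type) of the tested genes of the 4 pathway lists, with SE; filled points have an adjusted p under 0.05 in edgeR with all 7 libraries. The assembly partners hold 3 filled points on each side of 0, the TGF-beta ligand, activator and receptor list 4 above and 2 below, the response list none and the elastin-degrading enzymes 1.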

How the data were processed

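Libraries of poly(A) RNA from whole shoulder joints of 7 mice were made with a NEBNext Ultra kit, per the labels' protocols. The authors deposited 1 file per library, with unscaled read counts by Ensembl gene identifier. The submitters' processing notes list FastQC 0.11.9, HISAT2 2.2.1, HTSeq 2.0.2, DESeq2 1.38.3 and the build GRCm39, without roles; annotation release and strand setting are not given in the sources used here. Rows that name no gene, 30.1 to 32.7% of the reads in the Tnc-/- files, were left out, and the wild-type files list no such rows.

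From the 56854 identifiers in all files, those passing the filter entered edgeR 4.0.16 under R 4.3.3 (filterByExpr, TMM scaling, robust quasi-likelihood F test, genotype as the single term), with Benjamini-Hochberg adjustment over all 17791 genes tested and a threshold of 0.05. The SE is the size of the log2 fold change divided by the root of F. The edgeR p-values set the difference between genotypes against the spread between mice within a genotype. They cannot tell genotype from how reads were counted. Alternatives included DESeq2 1.42.0 and limma 3.58.1, other scalings and filters, leaving out libraries, a receptor covariate and a replicate block. On simulated data with 200 changed genes, edgeR recovered 68% of 2-fold and 100% of 4-fold changes among 17618 genes. Smaller changes were not simulated, and the log2 fold changes of the 10 genes ran only from -0.52 to 0.51. These rates therefore do not say how often changes of that size would be found. Whether the simulated counts had the spread of the 7 libraries was not tested. Gene lengths came from GENCODE M21 (GRCm38), which held 91.4% of the identifiers, so no coordinates are given except those of the RefSeq promoter table. No value column was left unmapped (0 columns).

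The genes named are the 10 members, Tnc and, from each of 4 pathway lists, the 2 genes with the smallest p and then the 2 with the highest mean; others are marked. The members and lists were chosen with earlier results of these data known.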

Additional observations from a re-analysis of the deposited data

Results flagged for a closer look

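Among 27 genes checked for a Tnc-/- library far from the other 3, 2 had one. By chance, about 1 in 20 groups would. Fbln2 was at 366 CPM in Tnc-/- library 4, with a gap to the next library of 0.967 of the whole range. Itgb1 was at 634 CPM in the same library, with a gap of 0.896 of the range. The 95% critical value of Dixon's test for 4 samples is 0.829. Of the 10 elastic fibre and latent TGF-beta binding protein genes, 0 exceeded it.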

How the results depend on the processing

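With all 7 libraries edgeR called 5159 genes, 1830 higher and 3329 lower in Tnc-/-. DESeq2 called 9423, DESeq2 with Bonferroni adjustment 1890, limma voom 973, the receptor covariate 397, the replicate block 1713 and wild-type library 1 alone 825; leaving out single libraries gave 2229 to 14113. The share of calls that were lower was 64.5%, against 82.7% with library totals (951 higher, 4541 lower) and 27.3% with voom. Of the 10 genes, DESeq2 called 1, library totals 2 and fits without a library 0 to 3; groups without overlap numbered 4 with wild-type library 1 alone (62.8% of all genes) and 2 to 5 without a library (37.2 to 65.6%), the 5 being without Tnc-/- library 4 (39.1%). The assembly partner list had 0 calls with Bonferroni adjustment, 1 with voom, 0 with the covariate, 2 with the block, 0 with wild-type library 1 alone and 2 to 10 without a library. The TGF-beta ligand, activator and receptor list had 1, 1 and 0 calls with Bonferroni, voom and covariate, 2 with wild-type library 1 alone and 1 to 8 without a library. The response list had 1 with library totals and 0 to 1 without a library. The enzyme list had 0 with Bonferroni, voom, covariate or wild-type library 1 alone, 3 with the block and 0 to 6 without a library. The cause of these changes was not tested.

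Directions also turned. With the covariate, log2 fold changes were -0.49 for Eln, -0.52 for Mfap4, -0.13 for Fbln2, -0.093 for Bmp1, -0.38 for Col1a1, -0.11 for Fn1, -0.31 for Ctsg, -0.35 for Mmp2 and -0.39 for Mmp14. With library totals they were -0.052 for Eln, -0.18 for Mfap4, -0.14 for Fn1 and -0.19 for Mmp2. Upper-quartile scaling gave -0.012 for Mfap4 and -0.019 for Mmp2, and at least 10 counts in every sample gave -0.025 and -0.031. With wild-type library 1 alone they were -0.25 for Eln, -0.35 for Mfap4, -0.11 for Col1a1, -0.18 for Mmp2 and -0.10 for Mmp14. With no filter they were 0.036 for Loxl2 and 0.028 for Itgb1. Fits without a library ran from -0.081 to 0.55 for Eln, -0.18 to 0.39 for Mfap4, -0.33 to 0.072 for Fbn1, -0.25 to 0.058 for Fbln5, -0.31 to 0.076 for Mfap5, -0.22 to 0.097 for Loxl2, -0.19 to 0.22 for Itgb1, -0.061 to 0.25 for Fn1 and -0.15 to 0.27 for Mmp2. In all 19 alternatives Ltbp2, Ltbp3 and Ltbp4 stayed above 0 and Ltbp1 and Fbn2 below. The alternatives reuse the same libraries, and DESeq2 with Bonferroni adjustment has the fold changes of DESeq2, so they are not separate checks of direction.

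The sample titles state no pairing of the mice by the numbers 1 to 3 shared by both genotypes. Deviations of same-numbered libraries correlated at -0.0053, 0.10 and -0.0055, and those of differently numbered libraries at -0.10 to 0.092. These correlations cannot settle whether mice were paired or shared a batch. With the replicate block, log2 fold changes were -0.057 for Eln, -0.14 for Mfap4, -0.064 for Fn1 and -0.15 for Mmp2, and 0 of the 10 genes were called.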
